A study of Rattus norvegicus with 43 samples.

Results

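The methionine cycle, transsulfuration and polyamine synthesis were followed in rat smooth muscle cells through 10 genes, chosen by name from the 14217 genes that had a probe set with 1 gene symbol on the array. They were read by 15 probe sets. Mat2a and Mtap had 3 probe sets each, Sms had 2, and Mat2b, Ahcy, Cbs, Cth, Amd1, Srm and Odc1 had 1 each, and the brightest set of each gene on average stands for it below. The cells were A7r5, a smooth muscle line derived from rat aorta, so every group shares 1 line and 1 custom-made DMEM base. Messenger RNA was measured on 43 arrays in 9 groups. The deficient medium held 2.5 ng/ml folic acid, the sufficient medium 10 ng/ml and the excess medium 100 ng/ml, each for 7, 14 or 21 days. At day 7 there were 4 arrays of deficient, 5 of sufficient and 4 of excess medium, and 5 of each on both later days. Nothing in the labels tells separate cultures from repeat arrays, so the p-values rest on the spread among these arrays alone, which may be technical, and precision is limited by how many there are.

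The methionine cycle turns methionine into S-adenosylmethionine, the methyl donor for DNA, RNA, protein and lipid methylation. Folate enters it where a methyl group from methyl-tetrahydrofolate turns homocysteine back into methionine. Homocysteine can instead leave through transsulfuration towards cysteine, glutathione and hydrogen sulfide, and decarboxylated S-adenosylmethionine gives the aminopropyl groups of the polyamines spermidine and spermine. Polyamines bind nucleic acids and are needed for growth, and in smooth muscle of the vessel wall their synthesis is known to accompany proliferation.

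Mat2a encodes the catalytic subunit of the methionine adenosyltransferase of most tissues outside the liver, and Mat2b its regulatory subunit. Ahcy encodes the hydrolase that removes S-adenosylhomocysteine, the product and inhibitor of methyl transfer. Cbs and Cth encode the enzymes of transsulfuration, cystathionine beta-synthase and cystathionine gamma-lyase. Odc1 encodes ornithine decarboxylase, which makes putrescine, Amd1 the decarboxylase of S-adenosylmethionine, and Srm and Sms the synthases of spermidine and spermine. Mtap encodes the phosphorylase that recovers methylthioadenosine, the by-product of both synthases, for return to methionine.

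The promoters of Srm, Cth and Odc1 are shown because, of the 9 genes tested, Srm had the largest fall and Cth the largest rise over culture time in each medium, and Odc1 differed between excess and sufficient medium under every setting tried at days 14 and 21. The Srm and Cth windows run from 250 bases before to 50 bases after the gene start in RefSeq's table for the GRCr8 assembly. All 10 genes were found in that table. The Odc1 window opens at base 46058415, while the table starts the gene at 46058439, so most of this window lies inside the gene as listed there. The windows of Sms, Mat2b and Amd1 do not sit at the table's gene start either. Capitals in the Srm and Cth promoters mark CACGTG, the E-box bound by Myc and related factors, and capitals in the Odc1 promoter mark GGGCGG or its reverse complement CCGCCC, the GC box.
Srm promoter, GRCr8 chr5:164308752-164309051, plus strand: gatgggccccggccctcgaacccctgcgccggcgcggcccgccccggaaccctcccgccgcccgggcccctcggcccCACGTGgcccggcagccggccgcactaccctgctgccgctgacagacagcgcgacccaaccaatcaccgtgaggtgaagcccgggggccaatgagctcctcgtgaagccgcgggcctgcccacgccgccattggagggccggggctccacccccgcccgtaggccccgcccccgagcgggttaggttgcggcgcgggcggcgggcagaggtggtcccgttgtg
Cth promoter, GRCr8 chr2:249661017-249661316, minus strand: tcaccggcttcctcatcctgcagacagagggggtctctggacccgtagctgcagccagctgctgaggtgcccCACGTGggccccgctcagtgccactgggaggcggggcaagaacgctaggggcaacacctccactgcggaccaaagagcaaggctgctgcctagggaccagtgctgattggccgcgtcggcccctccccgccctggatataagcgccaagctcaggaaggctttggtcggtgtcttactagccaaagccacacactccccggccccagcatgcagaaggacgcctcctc
Odc1 promoter, GRCr8 chr6:46058415-46058714, plus strand: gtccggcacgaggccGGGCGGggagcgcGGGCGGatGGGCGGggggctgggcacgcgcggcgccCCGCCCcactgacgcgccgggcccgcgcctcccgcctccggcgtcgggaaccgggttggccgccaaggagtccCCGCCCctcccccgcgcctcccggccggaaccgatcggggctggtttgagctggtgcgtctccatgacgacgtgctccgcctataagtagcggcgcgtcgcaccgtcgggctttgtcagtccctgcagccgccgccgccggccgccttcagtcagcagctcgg
The E-box began at position -173 of Srm and at -178 of Cth, counted from the gene start, and was found in the windows of these 2 members out of 10. It was held by 6.42% of the 33469 promoters in RefSeq's list. The letters GGGCGG or CCGCCC, searched on both strands, occurred 5 times in the Odc1 window and 5 times in the Srm window, where they are not in capitals, and 2.34% of all promoters held 5 or more. Every one of the 10 windows held at least 1, against 33.1% of all promoters. The letters TGATGCAA, a form of the amino acid response element, were in 0 of the 10 windows and in 0.795% of all promoters. These matches describe the sequence of the windows only.

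The deposited values are log2 expression from GCRMA, and 9 of the 10 genes passed the filter of a log2 value above 4 in at least 4 arrays. Cbs did not: it lay between 1.59 and 2.07 in all 43 arrays, low on a scale whose values run from 0.84 to 15, and it was not tested. All 8 smooth muscle markers passed the filter, with a mean log2 level of the list between 9.59 and 10.73 over the 43 arrays, while 0 of 4 hepatocyte markers, 1 of 4 endothelial, 1 of 5 epithelial and 1 of 5 macrophage markers on the array passed it. So did 4 of 8 skeletal muscle and 3 of 6 fibroblast markers, among the latter Lum, which passed through excess medium. The 12 genes of dividing cells had a median list level of 8.57 in excess medium at day 21 and 7.64 in sufficient medium, and 10 of the 12 were higher in excess medium at day 14 and again at day 21. Of all genes, 22.3% and 24.4% passed as higher on these days. Myc was not among the 10. It averaged 4.95 in excess and 5.21 in sufficient medium at day 14, and 4.94 and 5.13 at day 21. RNA quality was read from the difference between the 3' and 5' probe sets of the beta-actin control. This difference was 2 or more on 8 arrays, of which 3 were excess arrays of day 14, 3 excess arrays of day 21 and 2 sufficient arrays of day 7. The part of these 2 measures in the excess results was not tested beyond the values given with each of them.

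**Figure D1:**
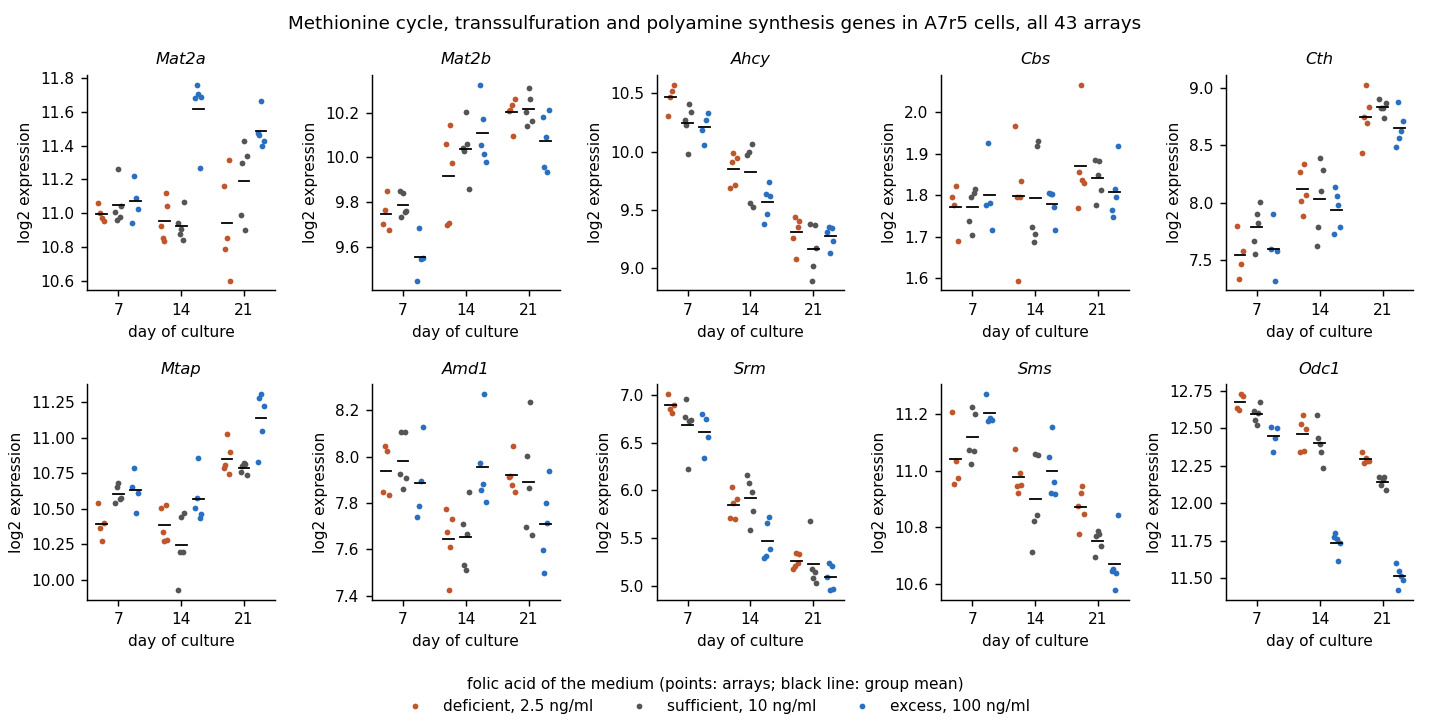
Log2 expression of the 10 genes on every array, by day of culture and medium, with a black line for each group mean. Axes differ between genes and do not start at 0. Srm and Ahcy are lower, and Cth higher, at day 21 than at day 7 in each medium, and the excess arrays of Odc1 at days 14 and 21 lie below all others.

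Time in culture was set out first, since it moved most of these genes in every medium. Between day 21 and day 7, 7 of the 9 tested genes passed the threshold in deficient medium, 6 in sufficient medium and 8 in excess medium (limma, adjusted p of 0.05 over all 9093 genes tested). The background was high: 64.8% of all genes passed in deficient, 62.6% in sufficient and 60.0% in excess medium. Srm, Ahcy, Sms and Odc1 fell and Mat2b and Cth rose in each of the 3 media. The median absolute log2 change of the 9 genes was 0.45 in deficient, 0.43 in sufficient and 0.53 in excess medium, against 0.36, 0.31 and 0.31 over all genes in the same 3 media.

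Srm, the spermidine synthase gene, showed the widest span of the 9, with group means 1.80 log2 units apart. In deficient medium at day 21 its 5 arrays read 5.18, 5.20, 5.34, 5.23 and 5.33, against 7.01, 6.85, 6.81 and 6.90 at day 7. In sufficient medium they read 5.68, 5.15, 5.18, 5.08 and 5.03 at day 21, against 6.77, 6.95, 6.72, 6.74 and 6.22 at day 7. The days did not overlap in either medium, although 1 sufficient array stood apart on each day. Srm fell by 1.63 ± 0.13 in deficient, by 1.46 ± 0.12 in sufficient and by 1.52 ± 0.13 in excess medium (log2 fold change ± SE), with adjusted p of 4.07e-14, 1.76e-13 and 4.22e-13 in limma. At day 14 its group means lay between the other days, at 5.84 ± 0.14 in deficient, 5.92 ± 0.23 in sufficient and 5.47 ± 0.20 in excess medium (SD, n = 5 each).

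Ahcy, which clears S-adenosylhomocysteine, followed the same course at a smaller size. Its sufficient arrays read 9.38, 9.37, 8.89, 9.01 and 9.17 at day 21, against 10.27, 10.23, 10.41, 10.34 and 9.98 at day 7, with no overlap. It fell by 1.16 ± 0.11 in deficient, by 1.08 ± 0.10 in sufficient and by 0.94 ± 0.11 in excess medium. These correspond to levels 2.24-fold, 2.12-fold and 1.92-fold lower at day 21.

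Cth, the cystathionine gamma-lyase gene, moved the other way. Its deficient arrays read 8.43, 8.74, 9.02, 8.69 and 8.83 at day 21, against 7.80, 7.34, 7.47 and 7.58 at day 7. Its sufficient arrays read 8.90, 8.74, 8.83, 8.82 and 8.87 at day 21, against 7.67, 7.56, 7.82, 8.00 and 7.90 at day 7. Every day 21 array stood above every day 7 array of its medium. The gene rose 2.29-fold in deficient, 2.06-fold in sufficient and 2.07-fold in excess medium, with adjusted p of 3.72e-10, 2.62e-09 and 1.01e-08 in limma. The E-box in its window, printed above, is shared with Srm, which fell.

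Mat2b, the regulatory subunit of the methionine adenosyltransferase, rose by 0.45 ± 0.08 in deficient, 0.43 ± 0.08 in sufficient and 0.52 ± 0.08 in excess medium. Mat2a, the catalytic subunit, passed the threshold in excess medium and in neither other, with 0.42 ± 0.11 (adjusted p = 0.00141 in limma), against -0.05 ± 0.11 in deficient and 0.14 ± 0.10 in sufficient medium. The test of whether the excess and sufficient media differed in that change gave 0.27 ± 0.15 with an adjusted p of 0.19, so it was not resolved. The excess change missed the threshold with the mean over its probe sets (0.31, adjusted p = 0.39 in limma), and the sufficient change passed it with array weights (0.25, 0.027). Mtap rose by 0.46 ± 0.10 in deficient and by 0.51 ± 0.10 in excess medium, and in sufficient medium its change of 0.18 ± 0.09 missed the threshold with an adjusted p of 0.072 in limma. That change passed with the mean over its probe sets (0.26, adjusted p = 0.0057), quantile normalization (0.22, 0.031), centred array medians (0.28, 0.0075), array weights (0.21, 0.016) and the groups of the comparison alone (0.18, 0.014). Its sufficient days did not overlap all the same, with 10.73 to 10.82 at day 21 and 10.54 to 10.68 at day 7.

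Odc1 and Sms fell less than Srm. Odc1 fell by 0.38 ± 0.06 in deficient, by 0.45 ± 0.05 in sufficient and by 0.94 ± 0.06 in excess medium. Sms, the spermine synthase gene, fell by 0.17 ± 0.07, by 0.36 ± 0.06 and by 0.53 ± 0.07 in the same media. Without deficient replicate 1 of day 7 or replicate 3 of day 21 the deficient value of Sms missed the threshold, with log2 changes of -0.11 and -0.14 (adjusted p = 0.15 and 0.069 in limma), as it did with arrays centred on their medians (-0.086, adjusted p = 0.29). A second Sms probe set, at a mean log2 level of 8.05, did not pass in any of the 3 media, with changes between -0.41 and -0.14. Amd1 was the steadiest of the 9 genes, with group means 0.34 log2 units apart and changes of -0.02 ± 0.10, -0.09 ± 0.10 and -0.18 ± 0.10 in deficient, sufficient and excess medium. Its excess change passed with serials up to 45 alone (-0.32, adjusted p = 0.022 in limma) and with the beta-actin difference as a covariate (-0.28, 0.025). Without the 8 arrays of high beta-actin difference it passed too (-0.34, 0.026).

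**Figure D2:**
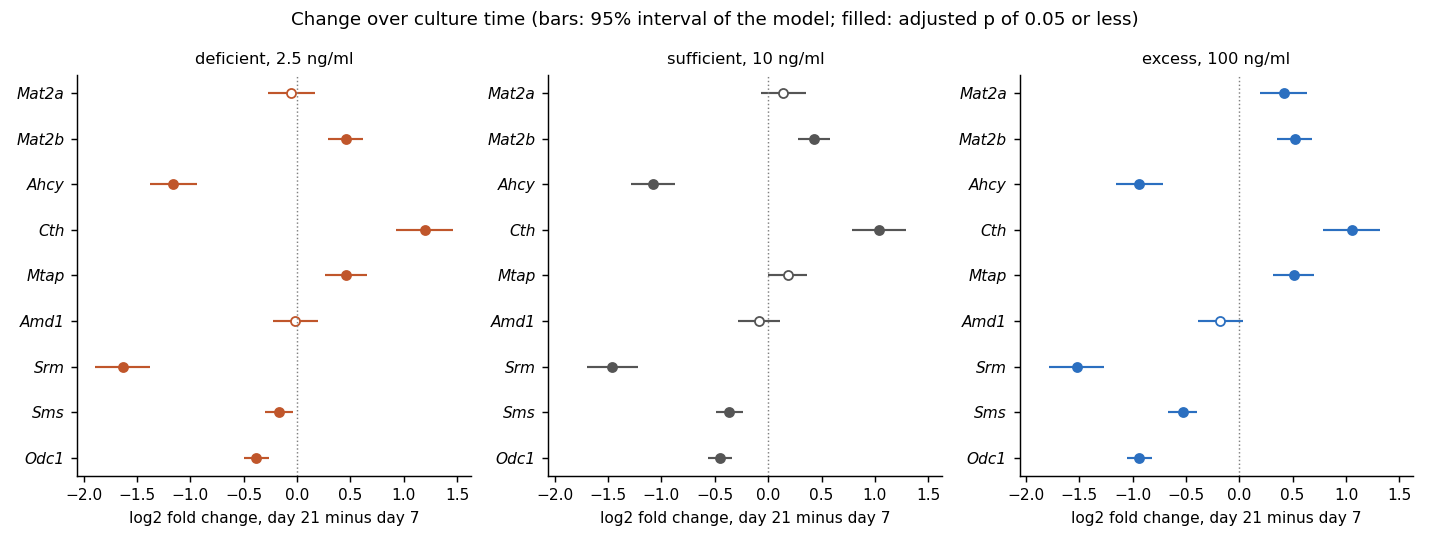
Log2 fold change between day 21 and day 7 for the 9 tested genes in each medium, with 95% intervals of the model. Filled points passed the threshold: Srm and Ahcy lie furthest to the left and Cth furthest to the right in all 3 panels.

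The genes of dividing cells moved in the same span of time. All 12 fell between day 7 and day 21 in each medium, with median log2 changes of -2.20 in deficient, -2.01 in sufficient and -1.19 in excess medium. Of all genes, 34.1%, 33.1% and 25.4% passed as lower in these media. The skeletal muscle list moved up, with medians of 5.51 at day 21 against 4.07 at day 7 in deficient, 5.24 against 4.13 in sufficient and 4.50 against 4.09 in excess medium. The part of either list in the changes of Srm, Ahcy, Sms, Odc1 and Cth was not tested, and in RNA from whole cultures fewer dividing cells and less RNA per cell cannot be told apart.

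Excess folic acid was compared with the sufficient medium to see what a further dose does to these genes. At day 7, 0 of the 9 genes passed the threshold in limma, where 2.38% of all genes did. Mat2b and Odc1, 2 of the 9, had an unadjusted p under 0.05, as did 16.9% of all genes. Both had excess arrays entirely below the sufficient ones, and 4.63% of all genes had groups that did not overlap. Mat2b read 9.45, 9.54, 9.55 and 9.68 in excess medium, against 9.85, 9.73, 9.75, 9.76 and 9.84 in sufficient medium, a difference of -0.23 ± 0.08 (adjusted p = 0.11 in limma). That value passed when the arrays with serials above 45 were fitted as a series or left out, and with array weights.

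At day 14, 6 of the 9 genes passed, Mat2a, Amd1 and Mtap higher and Odc1, Srm and Ahcy lower, where 41.2% of all genes passed. At day 21, 3 of the 9 passed, Mat2a and Mtap higher and Odc1 lower, where 43.7% of all genes passed. The median absolute difference of the 9 genes was 0.30 at day 14 and 0.18 at day 21, against 0.20 and 0.21 over all genes.

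Odc1, which makes putrescine, was lower in excess medium by the widest margin. At day 14 it read 11.78, 11.76, 11.61, 11.74 and 11.80 in excess medium, against 12.59, 12.44, 12.34, 12.39 and 12.24 in sufficient medium. At day 21 it read 11.60, 11.42, 11.54, 11.51 and 11.48, against 12.18, 12.17, 12.12, 12.15 and 12.09. The groups did not overlap on either day, and the gap between the lowest sufficient and the highest excess array was wider than either group's own range. Odc1 fell by 0.66 ± 0.05 at day 14 and by 0.63 ± 0.05 at day 21, or 1.58-fold and 1.55-fold lower, with adjusted p of 2.03e-12 and 3.72e-12 in limma. Both values passed under all 12 other settings and without any single array.

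The Odc1 difference was also present without the arrays that stood apart. Without the 8 arrays of high beta-actin difference it was -0.63 at day 14 and -0.63 at day 21. With the serials up to 45 alone it was -0.73 and -0.64 on these days. The excess arrays with serials above 45 read 11.76 to 11.80 at day 14 and those up to 45 read 11.61 to 11.74.

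Mat2a, the catalytic subunit of S-adenosylmethionine synthesis, was higher in excess medium. At day 14 it read 11.68, 11.70, 11.27, 11.68 and 11.76 in excess medium, against 10.94, 10.88, 10.84, 10.91 and 11.07 in sufficient medium. The groups did not overlap, and 1 excess array lay far below the other 4. Mat2a was higher by 0.69 ± 0.10, or 1.62-fold, with an adjusted p of 1.56e-06 in limma. At day 21 it read 11.47, 11.46, 11.67, 11.40 and 11.43 in excess medium, against 10.99, 10.90, 11.30, 11.43 and 11.34 in sufficient medium, so that the highest sufficient array overlapped the excess arrays. The day 21 difference of 0.29 ± 0.10 had an adjusted p of 0.020. It missed the threshold without sufficient replicate 1 (0.24, adjusted p = 0.071 in limma), without sufficient replicate 2 (0.22, 0.090) and without excess replicate 3 (0.25, 0.068). It did so too with serials up to 45 alone (0.21, 0.23) and without the 8 arrays of high beta-actin difference (0.28, 0.13).

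The probe sets of Mat2a did not give the same picture. The second differed by 0.12 ± 0.52 at day 14 and by -0.32 ± 0.52 at day 21, where the standard error of the first was 0.10. It read between 4.39 and 6.33 on the 8 arrays of high beta-actin difference and between 5.90 and 8.43 on the other 35. The first read between 10.96 and 11.70 on those 8 arrays and between 10.60 and 11.76 on the other 35. Within excess medium at day 14, the second set read 5.89, 5.81 and 6.33 on arrays of high beta-actin difference. It read 8.43 and 8.17 on the other excess arrays of that day, against 6.37 to 7.28 in sufficient medium. At day 21 these values were 5.53, 5.94 and 5.99, then 7.84 and 7.62, against 6.17 to 7.62 in sufficient medium. The mean over probe sets took only those past the filter, here the first and second. With it the excess difference of Mat2a was 0.40 at day 14 (adjusted p = 0.26 in limma) and -0.012 at day 21 (adjusted p = 0.98). In deficient against excess medium the same mean gave -0.41 at day 14 and -0.10 at day 21 (adjusted p = 0.26 and 0.79). The third probe set lay between 2.83 and 3.40, near background, and is not in that mean.

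**Figure D3:**
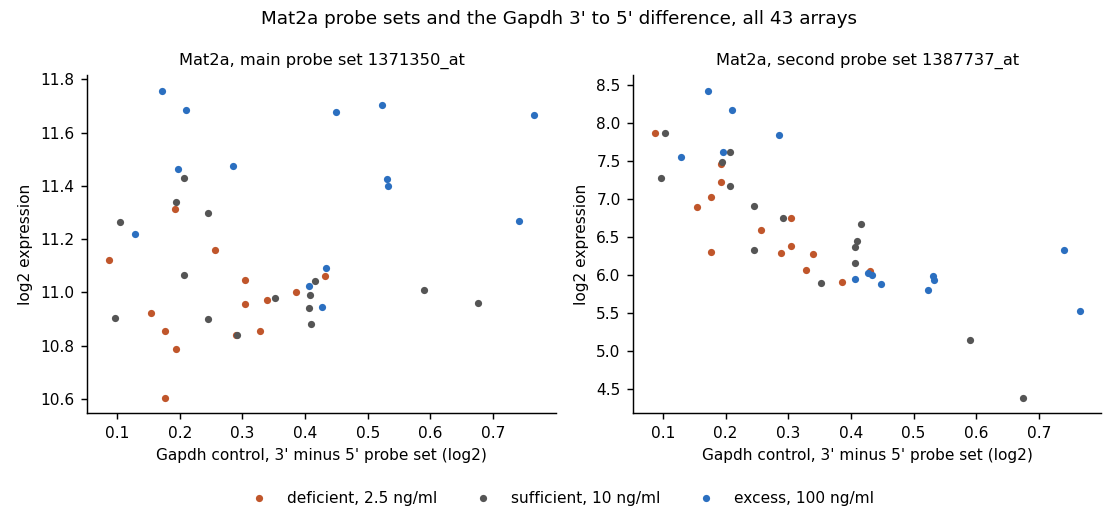
Log2 expression of Mat2a by its main (left) and second (right) probe set on all 43 arrays, against the 3' minus 5' difference of the Gapdh control (log2), coloured by medium. The second probe set is lowest, at 4.39, on the sufficient array of day 7 with a Gapdh difference of 0.68, while the main probe set shows excess arrays above 11.2 at both ends of the axis.

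Mtap, of methionine salvage, was higher in excess medium by 0.32 ± 0.09 at day 14 and by 0.35 ± 0.09 at day 21 (adjusted p = 0.00429 and 0.00161 in limma). At day 21 it read 10.83, 11.28, 11.31, 11.05 and 11.22 in excess medium, against 10.76, 10.82, 10.80, 10.82 and 10.73 in sufficient medium. The groups did not overlap, by the margin of 1 excess array that lay next to the sufficient ones. Without the 8 arrays of high beta-actin difference both values missed the threshold, at 0.27 on each day (adjusted p = 0.091 and 0.084). With serials up to 45 alone they did so as well, at 0.25 and 0.26 (adjusted p = 0.11 and 0.066). A second Mtap probe set near the filter level was higher by 0.57 ± 0.12 in excess medium at day 21 (adjusted p = 0.000224) and differed by 0.08 ± 0.12 at day 14.

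The other 3 genes called at day 14 were Srm, Amd1 and Ahcy, and at day 21 none of these passed. Srm read 5.29, 5.65, 5.72, 5.39 and 5.31 in excess medium at day 14, against 6.16, 6.08, 5.98, 5.59 and 5.78 in sufficient medium, and was lower by 0.45 ± 0.12 on the log2 scale (1.36-fold, adjusted p = 0.00307 in limma). The groups overlapped, with 2 excess arrays above the lowest sufficient array. Amd1, the decarboxylase that feeds both synthases, was higher by 0.30 ± 0.10 (adjusted p = 0.012). It lost the call without excess replicate 4 (0.23, adjusted p = 0.065) and without the 8 arrays of high beta-actin difference (0.18, adjusted p = 0.30). At day 21 Amd1 differed by -0.18 ± 0.10, the opposite sign, with an adjusted p of 0.13, and without the 8 arrays by -0.35 (adjusted p = 0.032).

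The Ahcy call at day 14 was the weakest of the 6. It differed by -0.26 ± 0.10 with an adjusted p of 0.044 in limma, and its groups overlapped. Leaving out sufficient replicate 1, 2 or 3, or excess replicate 1 or 3, ended the call, with differences between -0.23 and -0.19 and adjusted p between 0.10 and 0.15. Cth, Sms and Mat2b did not pass against sufficient medium on any day, with differences between -0.23 and 0.10.

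**Figure D4:**
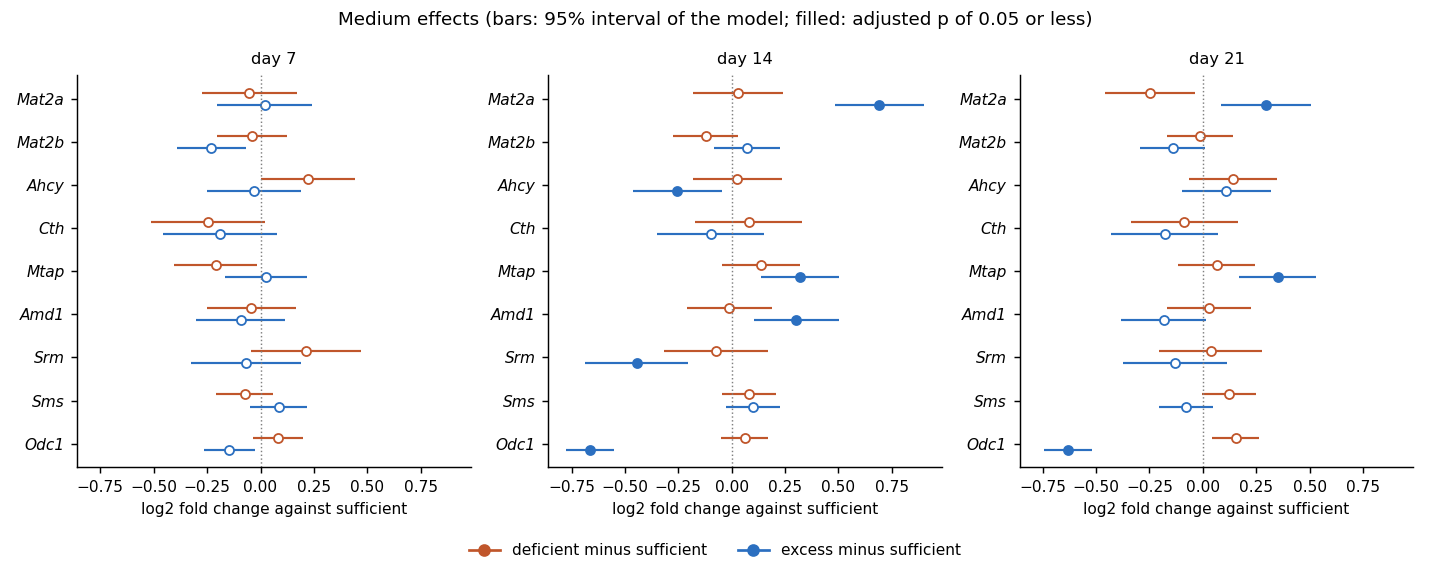
Log2 difference of deficient (orange) and excess (blue) medium from sufficient medium for the 9 tested genes at each day, with 95% intervals of the model. Filled points passed the threshold. All deficient points are open, and the blue points of Odc1 at days 14 and 21 lie near -0.66 and -0.63.

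The excess effect on Odc1 depended on the day. The difference of the excess effect between day 21 and day 7 was -0.48 ± 0.08 for Odc1 (adjusted p = 1.58e-05 in limma), the 1 gene of 9 that passed where 24.5% of all genes did. For the other 8 genes it lay between -0.16 and 0.32. Mtap, with 0.32 ± 0.13 and an adjusted p of 0.065, passed without excess replicate 6 of day 7 (0.38, adjusted p = 0.038) or without excess replicate 1 of day 21 (0.40, adjusted p = 0.016). Mtap also passed with the mean over its probe sets (0.55, adjusted p = 0.00052 in limma) and with array weights (0.37, 0.016). With the array series as a covariate it passed too (0.33, 0.032). The median of this contrast over all genes was -0.03 with arrays centred on their medians, against 0.09 as deposited. Under that centring Odc1 passed and Sms passed as well, at -0.28 (adjusted p = 0.033).

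In the excess samples of days 14 and 21 the list of dividing cells stood higher, while Odc1 was lower on both days and Srm passed as lower at day 14 alone. Its median level was 9.10 in excess medium and 8.16 in sufficient medium at day 14. The smooth muscle list was lower, with medians of 9.80 in excess and 10.34 in sufficient medium at day 21. At that day the skeletal muscle list had medians of 4.50 in excess and 5.24 in sufficient medium, and the fibroblast list 5.36 in excess and 5.02 in sufficient medium. Of the 3 fibroblast markers that passed the filter, Lum had a mean of 5.30 in excess and 2.42 in sufficient medium. Its means lay between 1.99 and 2.42 in every deficient and sufficient group. It thus passed the filter through excess medium, and its level there is given as a description only. Thy1 (11.39 against 11.52) and Pdpn (7.95 against 8.64) had lower means in excess medium. The part of these lists in the results was not tested. The beta-actin difference had medians of 2.37 and 2.30 in excess medium at days 14 and 21, against 1.71 and 1.67 in sufficient medium.

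Deficient medium was set against sufficient medium to see what a shortage of folate, which homocysteine remethylation needs, does to these genes. Against sufficient medium, 0 of the 9 genes passed at day 7, 0 at day 14 and 0 at day 21 in limma, where 0%, 0.0880% and 0.781% of all genes passed. At an unadjusted p under 0.05, 2, 0 and 2 of the 9 genes were counted on these days, where 6.06%, 8.66% and 12.3% of all genes were. The median absolute difference of the 9 genes was 0.08, 0.07 and 0.09 on the log2 scale, against 0.08, 0.08 and 0.09 over all genes.

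The 4 values at an unadjusted p under 0.05 were Ahcy and Mtap at day 7 and Odc1 and Mat2a at day 21. Odc1 came nearest. It read 12.34, 12.27, 12.30, 12.28 and 12.29 in deficient medium at day 21, against 12.18, 12.17, 12.12, 12.15 and 12.09 in sufficient medium. These groups did not overlap, the difference was 0.15 ± 0.05 (95% interval 0.04 to 0.26), and the adjusted p of 0.20 in limma missed the threshold, while with array weights it was 0.036. Mtap read 10.54, 10.36, 10.27 and 10.40 in deficient medium at day 7, against 10.54, 10.65, 10.57, 10.58 and 10.68 in sufficient medium, a difference of -0.21 ± 0.10 (adjusted p = 0.80), and the groups touched at 10.54 without crossing.

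Ahcy at day 7 and Mat2a at day 21 overlapped between the media. Ahcy differed by 0.22 ± 0.11 at day 7 (adjusted p = 0.80 in limma). Mat2a read 11.16, 10.79, 10.85, 11.31 and 10.60 in deficient medium at day 21, against the sufficient values above, a difference of -0.25 ± 0.10 (adjusted p = 0.30). The 95% intervals bound what the arrays could have missed. Those of Mat2a reached from -0.28 to 0.17 at day 7, from -0.18 to 0.24 at day 14 and from -0.46 to -0.04 at day 21, and those of Srm from -0.05 to 0.47, from -0.31 to 0.17 and from -0.21 to 0.28. The change in the deficiency effect between day 21 and day 7 passed for 0 of the 9 genes, where 0.0440% of all genes passed. Sms (0.20) and Mtap (0.27) had an unadjusted p under 0.05 for it, as did 10.8% of all genes.

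The deficient and excess media, the ends of the dose range, were also compared directly. This comparison shares its arrays with the others, so its values are given side by side with them. Odc1 was higher in deficient medium by 0.23 ± 0.06 at day 7, the 1 gene of 9 past the threshold where 5.00% of all genes passed. It read 12.64, 12.62, 12.73 and 12.71 in deficient medium, against 12.51, 12.44, 12.50 and 12.34 in excess medium, without overlap. With an adjusted p of 0.024 in limma this call was lost without deficient replicate 5 or 6 or excess replicate 3 or 6 (0.19 to 0.22, adjusted p between 0.059 and 0.091), and with arrays centred on their medians (0.16, adjusted p = 0.15). At days 14 and 21 Odc1 was higher in deficient medium by 0.72 ± 0.05 and 0.78 ± 0.05, or 1.65-fold and 1.72-fold.

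At day 14, 6 of the 9 genes passed between deficient and excess medium, where 40.3% of all genes passed, with Odc1, Srm (0.37) and Ahcy (0.28) higher and Mat2a (-0.66), Amd1 (-0.31) and Mat2b (-0.19) lower in deficient medium. At day 21, 4 of the 9 passed, where 50.9% of all genes passed, with Odc1 and Sms (0.20) higher and Mat2a (-0.54) and Mtap (-0.29) lower. Of these the Ahcy, Mat2b and Amd1 calls each depended on single arrays. Mat2b missed the threshold without deficient replicate 2 or 3 or excess replicate 1 or 3 (-0.18 to -0.14, adjusted p between 0.085 and 0.16 in limma). Ahcy did so without deficient replicate 2, 3 or 6 or excess replicate 1 or 3 (0.23 to 0.27, 0.056 to 0.089), and Amd1 without excess replicate 4 (-0.24, 0.055). Without the 8 arrays of high beta-actin difference all 3 missed it, at 0.22 for Ahcy (adjusted p = 0.28 in limma), -0.10 for Mat2b (0.49) and -0.19 for Amd1 (0.28), and Mat2b missed it under 9 of the 12 alternatives that leave no single array out. At day 21 the Sms call was lost with the mean over its probe sets (0.12, 0.39), its second probe set differing by 0.03. Amd1, at 0.21 with an adjusted p of 0.069, passed without excess replicate 5 (0.27, 0.027). It also passed with serials up to 45 alone (0.32, 0.013), the beta-actin difference as a covariate (0.32, 0.011) and without the 8 arrays (0.37, 0.016). Quantile normalization (0.26, 0.022), centred array medians (0.25, 0.024), array weights (0.21, 0.049) and the groups of the comparison alone (0.21, 0.048) brought it past the threshold as well. Mtap at day 21 missed it without the 8 arrays of high beta-actin difference (-0.20, 0.18) and with serials up to 45 alone (-0.20, 0.087), and Srm at day 14 with those serials (0.33, 0.057).

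Along the dose range, Odc1 at day 14 averaged 12.46 ± 0.11 in deficient, 12.40 ± 0.13 in sufficient and 11.74 ± 0.07 in excess medium (SD, n = 5 each), and the deficient and sufficient arrays overlapped. At day 21 it averaged 12.30 ± 0.03, 12.14 ± 0.04 and 11.51 ± 0.07 at these doses, with no overlap between neighbours. Mat2a at day 21 averaged 10.94 ± 0.29 in deficient, 11.19 ± 0.23 in sufficient and 11.49 ± 0.10 in excess medium, with overlap between deficient and sufficient and between sufficient and excess arrays.

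Other genes of the same pathways were followed in 4 lists, whose members were chosen with earlier results of these data known. The methionine cycle and its neighbours had 6 of 11 genes on the array tested, methionine salvage 4 of 4, polyamine regulation, catabolism and use 9 of 14, and cysteine, glutathione and sulfide metabolism 9 of 11. In deficient against sufficient medium 0 genes of any list passed on any day in limma. In excess against sufficient medium the methionine cycle list had 1 gene lower at day 7, and 1 higher and 2 lower at day 14 and at day 21. Salvage had 0, then 1 lower, then 2 higher and 1 lower on these days. The polyamine list had 3, 4 and 4 lower, and the cysteine, glutathione and sulfide list 1, 2 and 2 lower. Of all genes, 2.38%, 41.2% and 43.7% passed in this comparison on these days, and 5.00%, 40.3% and 50.9% in deficient against excess medium. In deficient against excess medium at days 7, 14 and 21, the counts higher were 1, 2 and 2 for the methionine cycle list, 0, 1 and 1 for salvage, 3, 2 and 1 for the polyamine list and 1, 3 and 2 for the cysteine list. The counts lower were 0, 1 and 1, then 0, 0 and 1, then 0, 1 and 1, and 0 on each day for the same lists.

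Mat1a, which encodes the catalytic subunit of the methionine adenosyltransferase typical of liver, went the opposite way to Mat2a. It was lower in excess medium by 0.35 ± 0.10, 1.01 ± 0.09 and 1.36 ± 0.09 at days 7, 14 and 21, or 1.28-fold, 2.01-fold and 2.56-fold lower. At day 21 its excess arrays lay between 5.50 and 5.88 and its sufficient arrays between 6.95 and 7.25. The day 7 call was lost without any 1 of 7 arrays, excess replicates 1, 3 and 4 and sufficient replicates 1, 2, 4 and 5, with adjusted p between 0.053 and 0.16 in limma, and with arrays centred on their medians (-0.27, 0.19). Against excess medium, deficient medium gave Mat1a levels 2.17-fold higher at day 14 and 3.02-fold higher at day 21. The hepatocyte markers stayed near background in every group, with list levels between 2.41 and 2.75.

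Mtrr, the reductase that keeps methionine synthase active, was higher in excess medium by 0.50 ± 0.10 at day 14 and 0.52 ± 0.10 at day 21, and differed by 0.00 ± 0.11 at day 7. Apip, a dehydratase of methionine salvage downstream of Mtap, was lower in excess medium by 0.77 ± 0.11 on the log2 scale at day 21 and by 0.33 ± 0.11 at day 14. Its day 21 level was 2.07-fold higher in deficient than in excess medium. In mitochondrial sulfide oxidation, Ethe1 was lower in excess medium by 0.81 ± 0.13 at day 14 and 0.78 ± 0.13 at day 21, and Sqor by 0.39 ± 0.08 at day 7 and 0.47 ± 0.08 at day 14. The day 7 value of Sqor missed the threshold without excess replicate 3 (-0.33, adjusted p = 0.060 in limma) and without the 8 arrays of high beta-actin difference (-0.32, 0.13).

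Sat1, the acetyltransferase that starts polyamine breakdown, rose over time in every medium while Srm, Sms and Odc1 fell. Its change between day 7 and day 21 was 1.40 ± 0.07 in deficient, 1.48 ± 0.06 in sufficient and 1.89 ± 0.07 in excess medium. In excess medium it was lower by 0.30 ± 0.07 on the log2 scale at day 7 and by 0.23 ± 0.06 at day 14 than in sufficient medium, and differed by 0.11 ± 0.06 at day 21. The day 7 call was lost without sufficient replicate 2 or excess replicate 1 or 3 (-0.28 to -0.25, adjusted p between 0.053 and 0.083 in limma), and without the 8 arrays (-0.18, 0.25). Sat2, its relative, rose by 1.24 ± 0.12 over time in excess medium. The Sat2 mean also rose between day 7 and day 21 in the other media, from 7.53 to 8.63 in deficient and from 7.68 to 8.79 in sufficient medium. Paox, which oxidizes acetylated polyamines, was higher in deficient than in excess medium at day 7 by 0.53 ± 0.13, a call lost without deficient replicate 2 or 6 or excess replicate 1 (0.45 to 0.49, adjusted p between 0.055 and 0.081).

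Between day 7 and day 21 the methionine cycle list had 2 genes higher and 2 lower in deficient, 3 and 2 in sufficient, and 1 and 2 in excess medium, of 6 tested, and salvage had 1 higher of 4 in each. The polyamine list had 5 genes higher and 3 lower in deficient, 5 and 3 in sufficient, and 5 and 2 in excess medium, of 9 tested. The cysteine, glutathione and sulfide list had 2 higher and 6 lower in deficient, 3 and 5 in sufficient, and 2 and 5 in excess medium. Of all genes, 64.8% passed over this span in deficient, 62.6% in sufficient and 60.0% in excess medium, so these counts are read against a background in which most genes passed. Slc7a11, the cystine importer, lay below the filter level of 4 on every array of day 21, with highest values of 3.80 in deficient, 3.96 in sufficient and 3.85 in excess medium. At day 7 it averaged 5.10, 5.14 and 4.83 in these media. It passed the filter through the earlier days, so no fold is given for it. Gclc, the catalytic subunit of glutathione synthesis, fell by 1.37 ± 0.14 in deficient and by 1.42 ± 0.13 in sufficient medium. In excess medium its mean also fell, from 8.28 at day 7 to 7.34 at day 21.

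**Figure D5:**
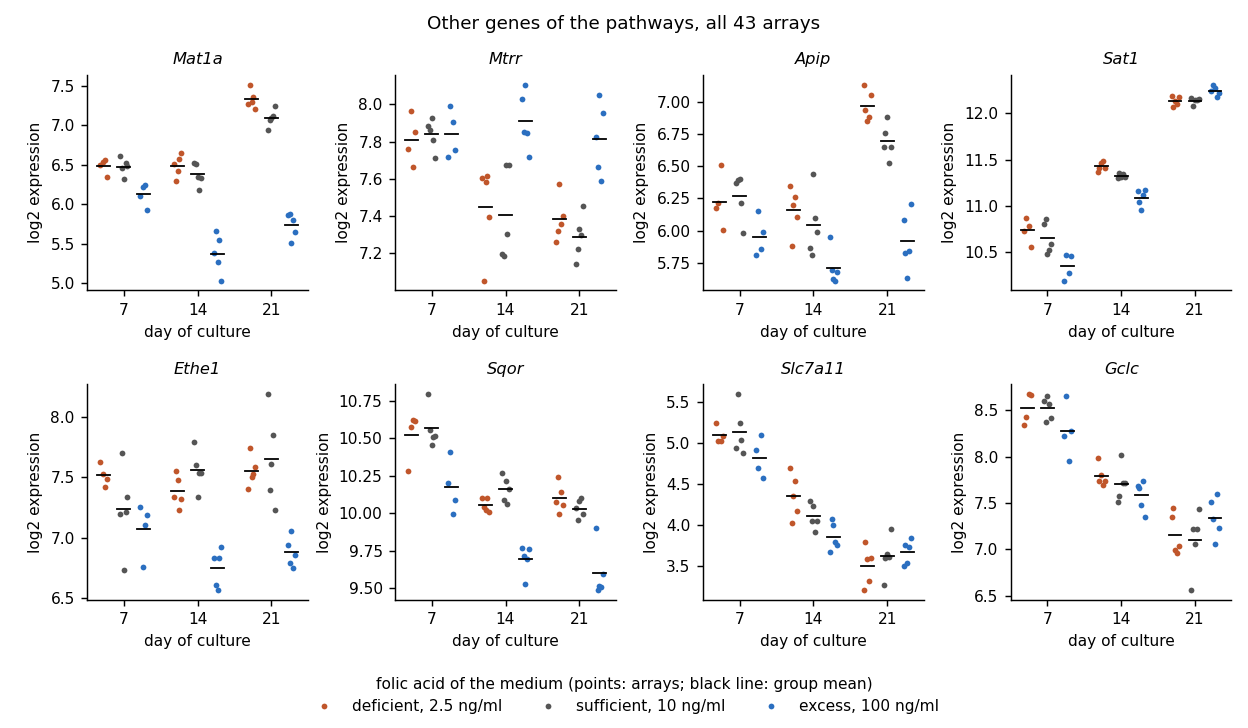
Log2 expression of 8 other genes of the pathways on every array, by day and medium, with group means as black lines and axes that do not start at 0. Excess arrays of Mat1a lie between 5.50 and 5.88 at day 21, below the sufficient arrays at 6.95 to 7.25, and Sat1 is higher at each later day in all media.

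The genes whose 9 group means were most like those of the members that spanned at least 1 log2 unit were found by the root mean square difference after each gene was centred on its own mean. For Odc1 these were Desi1 (0.072 log2) and Atf4 (0.073), a transcription factor of the amino acid response. For Srm they were Mast2 (0.067) and Nt5dc2 (0.10), for Ahcy Slc35a4 (0.073) and Abhd8 (0.077), and for Cth Sbp (0.082) and Scaper (0.092). The 9 points of each pair come from the same arrays, and this likeness is a description.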

How the data were processed

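RNA of A7r5 cells was hybridised to Affymetrix Rat230_2 arrays with a 3' IVT labelling kit, per the labels' protocols. The deposited table holds log2 values of 31099 probe sets made with GCRMA, per the submitters' processing notes, which also name limma and give no version. GCRMA corrects background by probe sequence and normalizes by quantiles, so values near 2 to 3 are close to background and differences there are blurred. Values lay between 0.84 and 15 and array medians between 3.66 and 3.72. Replicate correlations were 0.991 to 0.998, and no arrays were identical.

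Names came from GEO's annotation of the platform: 20826 had 1 symbol, 436 several and 9780 no entry, and 57 controls were left out. Identifiers were matched to RefSeq genes of GRCr8 for 20758 probe sets. All 43 arrays entered 1 linear model with a mean for each of 9 groups (limma 3.58.1, R 4.3.3, 34 residual and 4.12 prior degrees of freedom), with 14 two-sided comparisons, Benjamini-Hochberg adjustment over 9093 genes and a threshold of 0.05. Differences carry the model's standard error (SE) and levels an SD. The limma code was tested on simulated data.

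Titles gave each array its group, replicate number and a serial. The 11 arrays with serials above 45, which do not follow the order of the groups, were treated as a possible series. The members and lists were chosen with earlier results of these data known. All 10 members are named, and of each wider list up to 3 genes a comparison with the smallest adjusted p. Likeness was computed for members spanning at least 1 log2 unit. Alternatives covered the filter, probe set choice, scaling, replicate block, array series, RNA quality, array weights, the groups of a comparison alone, and leaving out each array. Means over the probe sets of a gene took only those that passed the filter. Figures were drawn with Python 3.11.15, pandas 2.3.3, numpy 2.4.6 and matplotlib 3.10.9.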

Additional observations from a re-analysis of the deposited data

Results flagged for a closer look

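Of 90 groups of arrays looked at, 6 held a value far from the others by Dixon's criterion at 95%, which chance alone meets in about 1 group in 20. Mat2a read 11.27 on replicate 4 of excess medium at day 14, where the others read 11.68 to 11.76. It read 11.67 on replicate 3 of excess medium at day 21 (others 11.40 to 11.47) and 11.26 on replicate 6 of sufficient medium at day 7 (others 10.96 to 11.04). Sms read 10.84 on replicate 5 of excess medium at day 21 (others 10.58 to 10.65) and 11.27 on replicate 1 of excess medium at day 7 (others 11.18). Srm read 5.68 on replicate 1 of sufficient medium at day 21 (others 5.03 to 5.18).

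The effect of excess medium differed between day 21 and day 7 for 4 genes named in the text, by the test of the difference in limma. It changed by -0.48 for Odc1 and by -1.01 for Mat1a, and both excess effects were further below 0 at day 21. It changed by 0.52 for Mtrr, which was higher in excess medium at day 21 and by 0.41 for Sat1, which was lower in excess medium at day 7 and not past the threshold at day 21. The Mtrr change missed the threshold with quantile normalization (0.39, adjusted p = 0.059), the mean over its probe sets (0.34, 0.051), the beta-actin difference as a covariate (0.45, 0.053) and without the 8 arrays where that difference was high (0.43, 0.13).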

How the results depend on the processing

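Of 42 calls of the 9 genes, 25 were kept under every alternative and 17 were lost in at least 1, and 15 of 84 values that were not called passed in at least 1. The 1 reversal was Mat2a in excess against sufficient medium at day 21, which was -0.012 with the mean over its probe sets past the filter. Counts of genes past the threshold moved as follows. Deficient against sufficient medium at day 21 gave 1 with array weights, in place of 0. Excess against sufficient medium gave 1 in place of 0 at day 7 with the array series as a covariate, with serials up to 45 alone and with array weights, 3 in place of 6 at day 14 with arrays of a beta-actin difference under 2, a setting chosen after seeing the data, and 1 in place of 3 at day 21 with serials up to 45. Deficient against excess medium gave at day 7, in place of 1, 0 with quantile normalization, with centred medians, with serials up to 45 and with the groups of the comparison alone, and 3 with array weights. It gave 3 in place of 6 at day 14 with serials up to 45, with the beta-actin covariate and with arrays under 2, and 2 in place of 4 at day 21 with the mean over probe sets. The change of the excess effect between days gave 2 in place of 1 with the mean over probe sets, centred medians, the series covariate and array weights. Without single arrays the counts ranged from 0 to 1 for deficient against excess medium at day 7 and from 1 to 2 for the change of the excess effect. The cause of these moves was not tested. The beta-actin limit removes 3 of 5 excess arrays at day 14 and 3 of 5 at day 21. Fewer arrays and their RNA quality cannot be told apart there. With the replicate block the counts were 5 in place of 6 for excess against sufficient and 4 in place of 6 for deficient against excess medium at day 14, and equal to those without it in the other 12 comparisons. Nothing in the labels says whether equal replicate numbers share a culture. The correlations of 133 same-numbered pairs ranged from -0.54 to 0.59, with a median of -0.014. Those of 688 pairs with other numbers ranged from -0.63 to 0.69, with a median of 0.0037.

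Counts over all genes moved by over 1.5 times between settings. Between deficient and sufficient medium they ranged over 0 to 10 (0 as reported) at day 7, 1 to 106 (8) at day 14 and 43 to 323 (71) at day 21. Between excess and sufficient medium the ranges were 0 to 783 (216), 2133 to 4308 (3742) and 2619 to 4351 (3972), between deficient and excess medium 198 to 1649 (455), 2200 to 4264 (3664) and 3378 to 5163 (4626), and for the changes of the deficiency and excess effects 2 to 59 (4) and 1222 to 2725 (2231).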
